A study of Mus musculus with 9 samples.

Results

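The Wnt genes described here are 10 rows of a table of 56748 genes measured by RNA-seq in mouse epididymal adipose tissue, the visceral fat pad beside the epididymis. They are the ligands *Wnt4*, *Wnt11* and *Wnt10b*, the secreted antagonists *Sfrp1*, *Sfrp2*, *Sfrp4* and *Dkk2*, the receptor *Fzd4*, and 2 genes of the intracellular response, *Axin2* and *Tcf7l2*. The set was chosen by gene symbol, after *Wnt4* had been selected on its lower level after 1 week of weight loss. All values at that step, and all values of *Wnt4*, are therefore descriptions without a test.

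Male C57BL/6J mice of WT genotype began a high-fat diet (HFD) at 8 weeks of age. The group Pre had received HFD for 8 weeks. WL1 and WL2 then received a standard diet (SD) for 1 and 2 weeks, respectively, and there were 3 libraries per group. The groups differ in age and in time on the diet as well as in weight loss, and no group kept on HFD, or fed SD throughout, was analysed here.

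Wnt proteins are secreted lipid-modified signals that bind Frizzled receptors on nearby cells. In the canonical branch, receptor binding halts the destruction of β-catenin, which then enters the nucleus and activates genes together with TCF/LEF factors. In adipose tissue this branch is known for restraining the conversion of preadipocytes into adipocytes, and secreted antagonists that trap Wnt proteins or block their co-receptors limit it.

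The DNA words that TCF/LEF factors bind are one feature of these genes that can be read without any expression value. RefSeq promoter windows on GRCm38.p6, from 250 bases before to 50 bases after the start, were matched for 8 of the 10 genes and gave 10 windows. *Sfrp1* and *Sfrp4* had none. The core word CTTTGAT, read on both strands, occurred in 1 of these 10 windows and in 3.73% of the 32851 windows of all genes. That window is 1 of 2 for *Wnt11*, and it is shown with the word in capitals, here as its reverse complement. The window of *Axin2*, a gene known as a direct target of β-catenin and TCF, is printed beside it and holds no such word. A match is only a match of letters, and its absence covers these 300 bases alone.
Wnt11, chr7:98834862-98835161, plus strand: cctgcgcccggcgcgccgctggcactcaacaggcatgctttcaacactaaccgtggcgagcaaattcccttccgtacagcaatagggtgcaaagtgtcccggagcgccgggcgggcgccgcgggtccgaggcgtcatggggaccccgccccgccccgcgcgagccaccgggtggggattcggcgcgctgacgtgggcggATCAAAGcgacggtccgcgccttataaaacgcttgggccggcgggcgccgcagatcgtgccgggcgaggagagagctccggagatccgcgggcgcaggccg
Axin2, chr11:108920099-108920398, plus strand: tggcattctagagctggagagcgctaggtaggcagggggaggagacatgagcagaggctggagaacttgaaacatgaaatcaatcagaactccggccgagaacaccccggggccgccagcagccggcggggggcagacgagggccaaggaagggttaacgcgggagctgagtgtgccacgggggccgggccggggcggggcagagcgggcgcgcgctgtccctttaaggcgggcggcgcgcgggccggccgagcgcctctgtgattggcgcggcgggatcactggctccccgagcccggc

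The libraries held 16434450 to 22729072 counted reads, so 1 read corresponded to 0.0459 to 0.0590 CPM, the unit that scales counts to the library total, here after TMM scaling. The 10 genes were all among the 18510 that passed the filter of 0.5 CPM in at least 1 library. *Dkk2* reached that limit in 7 libraries, *Wnt4* in 5 and the other 8 genes in all 9. The 10 adipocyte marker genes, which identify the labelled tissue, summed to 32834 to 39886 CPM in the Pre libraries, 26045 to 31708 in those of WL1 and 30964 to 36359 in those of WL2. Pre and WL1 did not overlap in this sum, and 9 of the 10 genes were lower at WL1 than at Pre. Of these, 3 were called (edgeR), beside 7.29% of all genes tested. The epididymis list was close to empty, with 46 reads in all 9 libraries together and no read of *Defb20*, *Lcn9* or *Spint4*. One library stood apart, Pre 2, in which 8 lymphocyte markers summed to 167.6 CPM, while the other 8 libraries lay between 5.43 and 15.3 CPM. Macrophage markers summed to 1360 to 2363 CPM in Pre, 2672 to 5152 in WL1 and 1511 to 2862 in WL2 libraries, the last overlapping both others. For mural cell markers the sums were 758 to 973 CPM in Pre, 480 to 625 in WL1 and 449 to 647 in WL2 libraries. The share of mitochondrial reads was 3.15% to 3.57% at Pre, 1.86% to 2.03% at WL1 and 2.28% to 2.88% at WL2. The part of these differences in the results below was not tested. In bulk tissue, fewer cells of a type and less RNA per cell cannot be told apart.

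Per unit of gene length, in the authors' FPKM, *Fzd4* was by far the most abundant of the 10 genes, with a mean of 79.1 FPKM over the 9 libraries and a range of 59.8 to 95.02. *Sfrp2* followed at 13.6 FPKM, with a wide range of 3.52 to 22.4. Next came 5 genes with close means, *Sfrp1* at 4.16, *Sfrp4* at 3.54, *Axin2* at 3.43, *Wnt11* at 3.35 and *Tcf7l2* at 3.34 FPKM. Their ranges overlapped one another, and the order among these 5 was not tested. The range of *Sfrp1*, 2.44 to 6.48 FPKM, overlapped that of *Sfrp2* as well. Within libraries, however, *Sfrp2* was above *Sfrp1* in all but Pre 1, where they were at 4.39 and 4.97 FPKM. *Wnt10b* lay lower at 1.14 FPKM. *Dkk2* and *Wnt4* were the scarcest, at 0.233 and 0.225 FPKM, and their ranges overlapped too.

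Of the 9 Wnt genes that could be tested, 0 passed the threshold at WL2 against Pre and 0 at WL2 against WL1 (edgeR quasi-likelihood test, Benjamini-Hochberg adjustment over all 18510 genes). Of all genes tested, 10% were called at WL2 against Pre and 3.68% at WL2 against WL1. At an unadjusted p under 0.05 there were 2 in each, *Axin2* and *Tcf7l2* at WL2 against Pre, where 26.0% of all genes were under it, and *Wnt11* and *Sfrp4* at WL2 against WL1, where 21.4% were. DESeq2 called 2 and 1 of the 9, respectively, and 14.7% and 10.5% of all genes. Limma on log2(FPKM + 1) called 0 in both, and 9.83% and 2.90% of all genes. Shares of 2 or 1 in 9 are near these backgrounds. The median log2 fold change of the 10 genes was -0.38 at WL1 against Pre, -0.16 at WL2 against Pre and 0.27 at WL2 against WL1, beside 0.02, 0.01 and -0.00 for all genes tested. These comparisons share libraries with the step on which *Wnt4* was selected, so their directions are not independent of it.

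**Figure D1:**
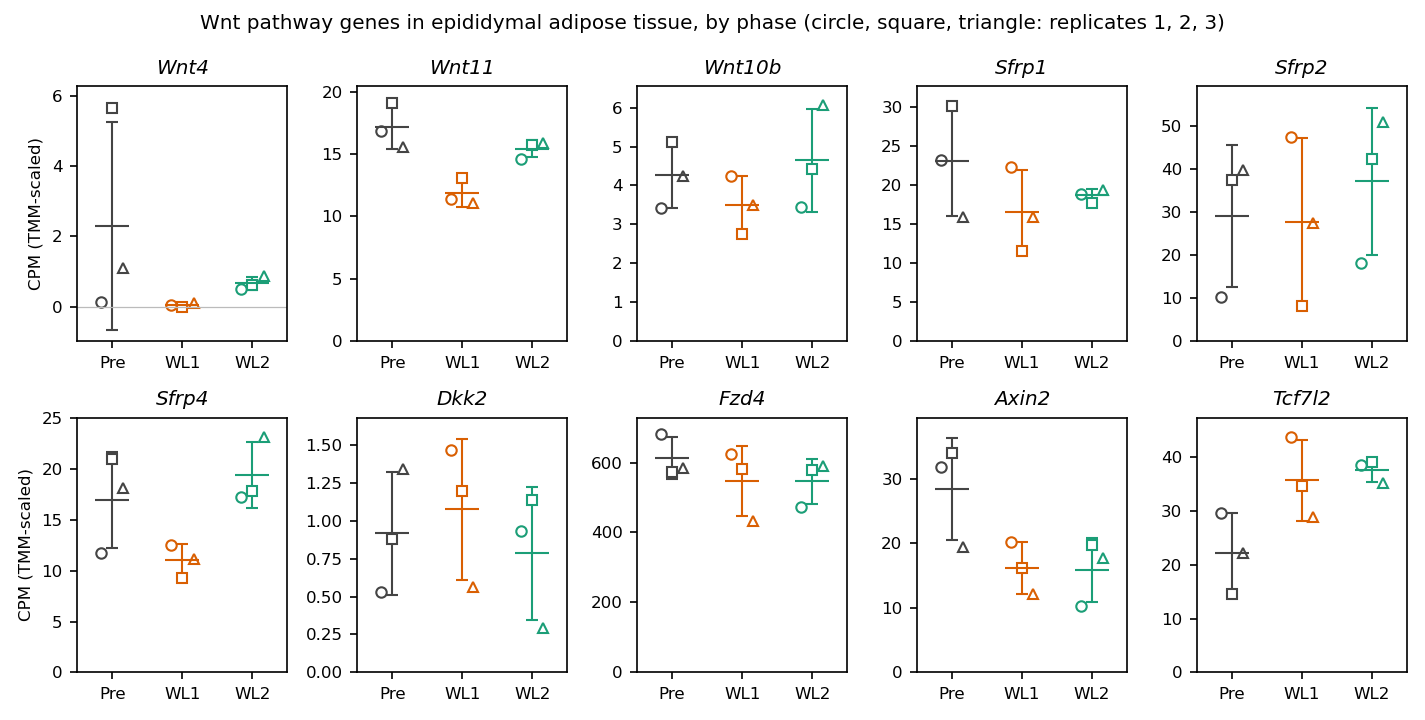
CPM (vertical axis, TMM-scaled) of the 10 Wnt genes in each of the 9 libraries, by group on the horizontal axis. Symbols are single libraries, horizontal bars the mean and vertical bars the SD of 3 libraries. The Pre libraries of *Wnt4* spread from 0.118 to 5.68 CPM, and the 3 *Wnt11* libraries of WL1 lie below those of Pre and WL2.

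*Wnt4* (ENSMUSG00000036856, chromosome 4, 137004800 to 137027037, plus strand, in the coordinates of the authors' table), a ligand known for its roles in the development of the kidney and the female reproductive tract, was present at Pre, close to undetected at WL1 and detected again at WL2. The Pre libraries held 0.118, 5.68 and 1.11 CPM, the WL1 libraries 0.0543, 0 and 0.112 CPM, and the WL2 libraries 0.493, 0.623 and 0.869 CPM. In reads, these were 2, 103 and 24 at Pre, 1, 0 and 2 at WL1, and 9, 11 and 15 at WL2. The 3 WL2 libraries were close to one another and all above WL1. At Pre, by contrast, a single library, Pre 2, held 79.8% of the 129 reads. Pre 1 and WL1 3 had 2 reads each, so the gap between Pre and WL1 that leaves the groups without overlap is narrower than 1 read. The library with 0 reads allows up to 3 counts, or 0.138 CPM.

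For *Wnt4*, the Pre libraries averaged 2.30 ± 2.96 CPM, those of WL1 0.0556 ± 0.0562 and those of WL2 0.662 ± 0.191 (standard deviation, written SD beside n, n = 3 each). The fitted log2 fold change was -5.28 (SE 1.30) at WL1 against Pre. Summed over libraries, the level at WL1 was 0.0228 times that at Pre, with a 95% interval of 0.00463 to 0.0680 that covers counting error only. Without Pre 2 the ratio was 0.0769, with an interval of 0.0149 to 0.251, and the log2 fold change was -3.43. The direction of this step was the same without Pre 2, but the size was smaller. *Wnt4* had been selected on this step, and the intervals pool the reads of each group. These values therefore describe the step and are no test of it. Of the 26 reads left at Pre, 24 were in Pre 3.

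The later steps of *Wnt4* differed in how far they rested on the same library. At WL2 the level was 12.7 times that at WL1, with a counting interval of 4.01 to 64.6 that reflects the 3 reads at WL1, and the log2 fold change was 3.50 (SE 1.37). At WL2 against Pre the ratio was 0.290 (interval 0.193 to 0.424) and the log2 fold change -1.79 (SE 0.97). Without Pre 2 that ratio was 0.978, with an interval of 0.572 to 1.69, and the log2 fold change 0.07. A level at WL2 below that at Pre appeared only with Pre 2 in the group. Pre 2 is the library with the raised lymphocyte markers, and its *Wnt4* level was 8.43 times (interval 5.44 to 13.5) that of Pre 1 and Pre 3 together. Pre 2 also had the highest sum at Pre of the markers of mesothelium, a cell layer over the fat pads, at 508 CPM. That sum was 463 CPM in Pre 3, 115 in Pre 1, 144 to 369 at WL1 and 387 to 937 at WL2. WL1 1, with 369 CPM, held 1 *Wnt4* read. Whether the cells behind either list account for the *Wnt4* of any library was not tested.

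**Figure D2:**
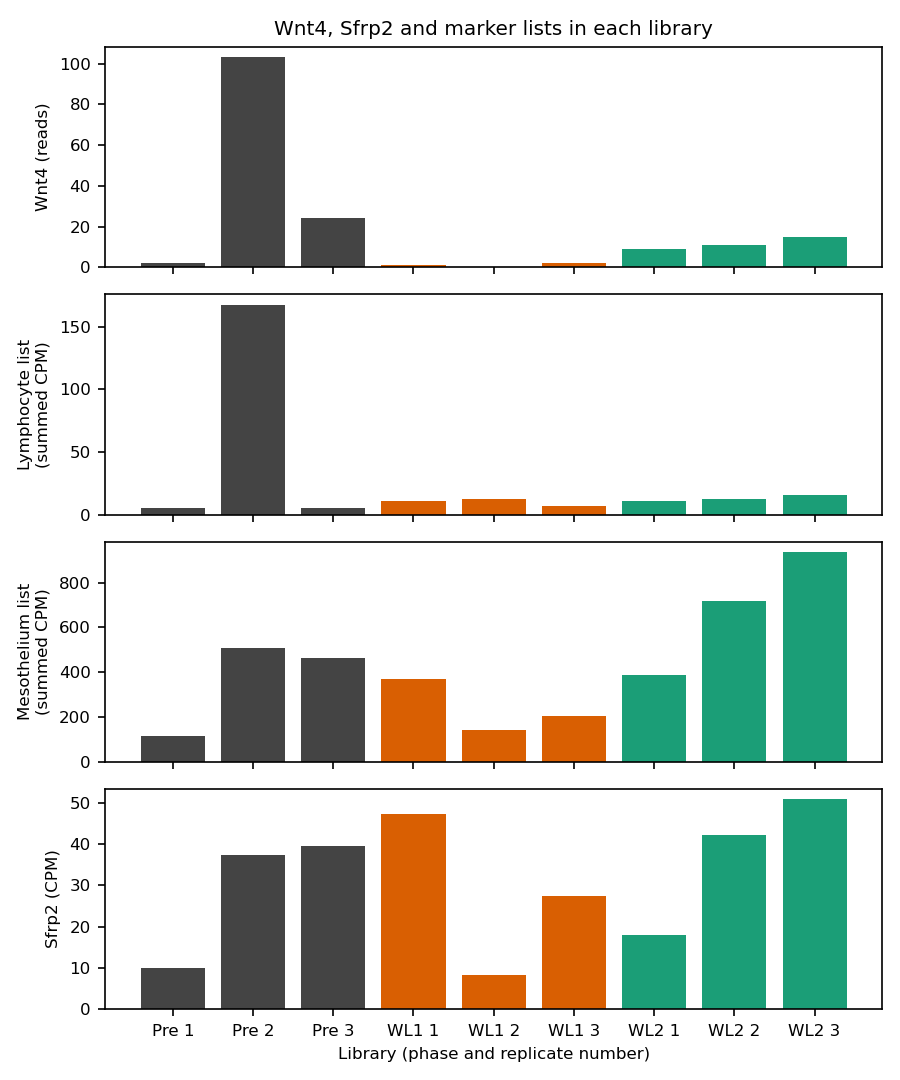
*Wnt4* in reads, the summed CPM of the lymphocyte and mesothelium marker lists, and *Sfrp2* in CPM, from top to bottom, with 1 bar per library. Pre 2 holds both the most *Wnt4* reads, 103, and the highest lymphocyte sum, 167.6 CPM, while Pre 3 has 24 *Wnt4* reads with a lymphocyte sum of 5.49 CPM.

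Other libraries held *Wnt4* as well. Pre 3 had 24 *Wnt4* reads with a lymphocyte sum of 5.49 CPM, and the WL2 libraries held 9 to 15 reads with sums of 10.6 to 15.3 CPM. Among 13056 protein-coding genes with a mean of at least 1 CPM, those whose log2 CPM followed *Wnt4* most closely over the 9 libraries were *Egln3*, an oxygen-sensing prolyl hydroxylase, with Pearson's r of 0.948, *Serpinb1a*, an inhibitor of neutrophil proteases, with 0.940, and *Crtap*, a protein needed for collagen prolyl hydroxylation, with 0.940. These values describe 9 libraries in 3 groups with Pre 2 among them.

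*Wnt11* (ENSMUSG00000015957, chromosome 7, 98484319 to 98504402, plus strand), a ligand best known for signalling without β-catenin, had replicates close to one another. The Pre libraries held 16.8, 19.1 and 15.6 CPM, the WL1 libraries 11.4, 13.1 and 11.1 CPM, and the WL2 libraries 14.6, 15.7 and 15.9 CPM. Every WL1 library lay below every Pre and every WL2 library, and the Pre and WL2 libraries overlapped. The log2 fold change was -0.53 (SE 0.13) at WL1 against Pre, where *Wnt4* and *Wnt11* were the only 2 of the 10 genes without overlap, and 28.7% of all genes tested had none. It was 0.38 (SE 0.13) at WL2 against WL1 and -0.15 (SE 0.13) at WL2 against Pre. The adjusted p of edgeR was 0.127 at WL2 against WL1 (unadjusted 0.0155) and 0.481 at WL2 against Pre. Leaving out any single library gave log2 fold changes of *Wnt11* at WL2 against WL1 of 0.350 to 0.455. The adipocyte markers moved by a similar amount, their median being -0.46 (log2) from Pre to WL1 and 0.40 from WL1 to WL2, and 8 of the 10 were higher at WL2 than at WL1. The part of adipocyte content in the *Wnt11* values was not tested.

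*Wnt10b* (ENSMUSG00000022996, chromosome 15, 98668593 to 98676031, minus strand), the ligand known for holding back adipocyte differentiation through β-catenin, showed no such separation. Its libraries held 3.42, 5.12 and 4.25 CPM at Pre, 4.23, 2.76 and 3.49 CPM at WL1, and 3.45, 4.42 and 6.08 CPM at WL2. The 3 groups overlapped. The mean was 3.49 ± 0.740 CPM at WL1, against 4.26 ± 0.852 at Pre and 4.65 ± 1.33 at WL2 (SD, n = 3 each). *Wnt10b* had a log2 fold change of -0.29 (SE 0.27) at WL1 against Pre, 0.12 (SE 0.27) at WL2 against Pre and 0.41 (SE 0.27) at WL2 against WL1. The last 2 had adjusted p of 0.810 and 0.439 (edgeR). All 3 ligands had their lowest mean at WL1.

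Among the antagonists, *Sfrp4* (ENSMUSG00000021319, chromosome 13, 19807274 to 19817164, plus strand), a secreted Frizzled-related protein that binds Wnt proteins outside the cell, followed the ligands most closely in shape. It was at 11.7, 21.0 and 18.1 CPM in the Pre libraries, at 12.5, 9.32 and 11.2 CPM in the WL1 libraries and at 17.2, 17.8 and 23.2 CPM in the WL2 libraries. Every WL2 library was above every WL1 library, and Pre 1 lay within the WL1 range. Its log2 fold change was -0.63 (SE 0.22) at WL1 against Pre, 0.82 (SE 0.22) at WL2 against WL1 and 0.19 (SE 0.22) at WL2 against Pre. The adjusted p of edgeR was 0.0662 at WL2 against WL1 (unadjusted 0.00358) and 0.607 at WL2 against Pre. The first of these came below the threshold with WL1 and WL2 fitted alone, at 0.0342, without Pre 1, at 0.0339, without Pre 2, at 0.0435, and in DESeq2, at 0.00932. Between WL2 and WL1, 3 of the 10 genes had no overlap, *Wnt4*, *Wnt11* and *Sfrp4*, all higher at WL2, and the share of all genes tested was 30.3%.

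*Sfrp1* (ENSMUSG00000031548, chromosome 8, 23901518 to 23939648, plus strand), another member of the same family, varied mostly within groups. The libraries held 23.2, 30.1 and 15.9 CPM at Pre, 22.3, 11.6 and 15.9 CPM at WL1, and 18.9, 17.7 and 19.4 CPM at WL2. The WL2 libraries lay within the ranges of both other groups. Its log2 fold change was -0.48 (SE 0.26) at WL1 against Pre, -0.31 (SE 0.26) at WL2 against Pre and 0.17 (SE 0.26) at WL2 against WL1, the last 2 with adjusted p of 0.481 and 0.768 (edgeR).

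*Sfrp2* (ENSMUSG00000027996, chromosome 3, 83673628 to 83681623, plus strand) had the widest spread of the antagonists in absolute terms. It stood at 10.1, 37.4 and 39.6 CPM at Pre, at 47.2, 8.22 and 27.4 CPM at WL1 and at 18.1, 42.2 and 50.9 CPM at WL2. High and low libraries occurred in every group. *Sfrp2* had a log2 fold change of -0.08 (SE 0.62) at WL1 against Pre, 0.35 (SE 0.62) at WL2 against Pre and 0.43 (SE 0.62) at WL2 against WL1, the last 2 with adjusted p of 0.760 and 0.761 (edgeR).

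The 2 libraries lowest in *Sfrp2* were also the 2 lowest in markers of mesothelium, the cell layer that covers the visceral fat pads. The 10 mesothelium genes summed to 115 CPM in Pre 1 and 144 CPM in WL1 2, and to 937 CPM in WL2 3, the library with the most *Sfrp2*. The match did not hold between groups, as WL1 1, second highest in *Sfrp2*, had a sum of 369 CPM. Within WL1 and within WL2, the libraries had the same order in *Sfrp2* and in the marker sum. Within Pre, Pre 1 was lowest in both, while Pre 2 had the higher sum (508 CPM, beside 463 in Pre 3) and Pre 3 the higher *Sfrp2*. The sums were 115 to 508 CPM at Pre, 144 to 369 CPM at WL1 and 387 to 937 CPM at WL2, and all 10 marker genes were detected in each library. Of these 10 genes, 1 was called at WL2 against Pre, beside 10% of all genes tested (edgeR). At WL2 against WL1, 0 were called, beside 3.68%, and 10 had an unadjusted p under 0.05, beside 21.4% (edgeR). In Pre 1, *Cldn15* alone gave 70.1 of the 115 CPM. A list of 12 fibroblast and progenitor genes summed to 3344 to 5782 CPM over the 9 libraries, highest in WL1 3, and so did not follow *Sfrp2*. Its member *Dpp4*, however, was also lowest in Pre 1 and WL1 2, at 17.1 and 18.2 CPM, and highest in WL2 3, at 77.9 CPM. The match with *Sfrp2* was thus not particular to mesothelium markers. The part of mesothelial or progenitor cells in the *Sfrp2* values was not tested.

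*Dkk2* (ENSMUSG00000028031, chromosome 3, 131791053 to 131886065, plus strand), which binds the LRP co-receptors, was too scarce for a firm comparison. Its libraries held 0.531, 0.882 and 1.34 CPM at Pre, 1.47, 1.19 and 0.562 CPM at WL1, and 0.931, 1.13 and 0.290 CPM at WL2, or 5 to 29 reads. The groups overlapped throughout. *Dkk2* had a log2 fold change of 0.22 (SE 0.56) at WL1 against Pre, -0.23 (SE 0.58) at WL2 against Pre and -0.45 (SE 0.57) at WL2 against WL1, and the adjusted p of edgeR was 0.831 and 0.720 for the last 2. A difference was not detectable at this depth.

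*Fzd4* (ENSMUSG00000049791, chromosome 7, 89053563 to 89062342, plus strand), a Frizzled receptor for Wnt proteins and for norrin that is prominent in blood vessels, was the most abundant of the 10 genes, and its group means lay close together. The libraries held 682, 574 and 583 CPM at Pre, 625, 581 and 434 CPM at WL1, and 472, 577 and 590 CPM at WL2. The ranges overlapped, with 1 lower library each at WL1 and WL2. The log2 fold change was -0.17 (SE 0.16) at WL1 against Pre and -0.17 (SE 0.16) at WL2 against Pre, with an adjusted p of 0.534 for the latter (edgeR). The WL2 and WL1 means were 546 ± 64.8 and 547 ± 100.1 CPM (SD, n = 3 each). The endothelial marker list summed to 1280 to 2489 CPM over the 9 libraries, with all groups overlapping.

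*Axin2* (ENSMUSG00000000142, chromosome 11, 108811175 to 108841609, plus strand), a scaffold of the β-catenin destruction complex that is itself induced by β-catenin, was lower at both weight loss steps. It measured 31.8, 34.1 and 19.4 CPM in the Pre libraries, 20.2, 16.3 and 12.2 CPM in the WL1 libraries and 10.2, 19.7 and 17.8 CPM in the WL2 libraries. Pre 1 and Pre 2 were above all other libraries, and Pre 3 lay within the upper part of the WL1 and WL2 ranges. The summed mural cell markers were also higher in each Pre library than in any other, although only 2 of the 7 genes, *Acta2* and *Cspg4*, were so on their own, and their part was not tested. Pre averaged 28.4 ± 7.91 CPM, WL1 16.2 ± 4.02 and WL2 15.9 ± 5.01 (SD, n = 3 each). The log2 fold change was -0.81 (SE 0.28) at WL1 against Pre, -0.84 (SE 0.29) at WL2 against Pre and -0.03 (SE 0.29) at WL2 against WL1.

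At WL2 against Pre the adjusted p of *Axin2* was 0.0947 (edgeR, unadjusted 0.0144), and at WL2 against WL1 it was 0.972. Without Pre 3 the former was 0.0492 at a log2 fold change of -1.05, and DESeq2 gave 0.0347. Without Pre 2 it was 0.214 at -0.68. The call thus depended on which Pre library was left out and on the tool. An antisense long non-coding gene, *Gm11670*, lies within *Axin2*. It held 212 reads over the 9 libraries, against 3364 for *Axin2*, and without a stated strand setting the reads of the pair cannot be told apart.

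*Tcf7l2* (ENSMUSG00000024985, chromosome 19, 55730252 to 55922086, plus strand), which encodes a TCF factor that carries β-catenin to its target genes, was the one gene of the 10 with a higher mean than Pre at WL1 and, without overlap, at WL2. The Pre libraries held 29.6, 14.6 and 22.2 CPM, the WL1 libraries 43.6, 34.7 and 28.8 CPM, and the WL2 libraries 38.5, 39.1 and 35.2 CPM. Every WL2 library was above every Pre library, whereas Pre 1 exceeded WL1 3 by less than 1 CPM. It was the only one of the 10 genes without overlap at WL2 against Pre, where the share of all genes tested was 30.9%. The log2 fold change was 0.69 (SE 0.23) at WL1 against Pre, 0.76 (SE 0.23) at WL2 against Pre and 0.07 (SE 0.23) at WL2 against WL1.

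The adjusted p of *Tcf7l2* was 0.0633 at WL2 against Pre (edgeR, unadjusted 0.00740) and 0.900 at WL2 against WL1. It was 0.0216 without Pre 1, at a log2 fold change of 1.03, 0.0124 with no filter on low counts and 0.0163 in DESeq2. Without Pre 2, the library with the lowest *Tcf7l2*, it was 0.111 at 0.54. *Axin2* and *Tcf7l2*, an inducible brake and a transcription factor of the same branch, were thus measured on opposite sides of Pre, with SEs that leave both short of the threshold.

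**Figure D3:**
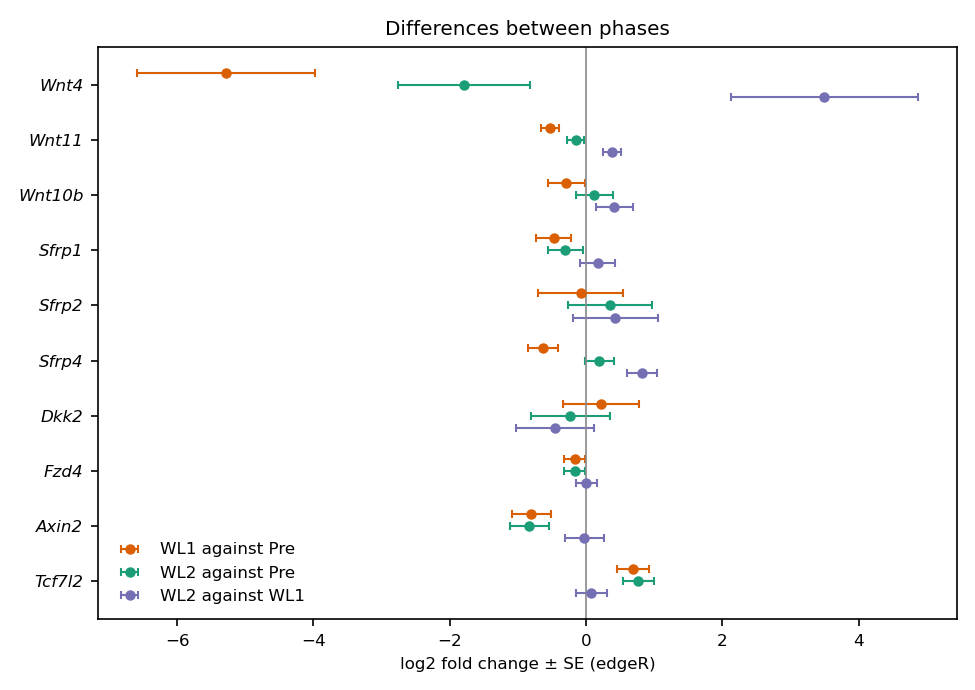
Log2 fold changes (horizontal axis) of the 10 Wnt genes in the 3 comparisons, with bars of 1 SE from the edgeR model. *Wnt4* spans from -5.28 at WL1 against Pre to 3.50 at WL2 against WL1, and the other 9 genes lie between -0.84 and 0.82.

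The rest of the pathway was read from a list of 101 further genes, of which 83 passed the filter. At WL1 against Pre, 7 of the 83 were called, or 8.43%, beside 7.29% of all genes tested. *Myc* and *Fzd7* rose, and *Wnt5a*, *Trabd2b*, *Fzd3*, *Ryk* and *Nkd1* fell. At WL2 against Pre, 14 were called, or 16.9%, beside 10% of all genes tested. Of the 14, 5 rose (*Fzd1*, *Csnk1e*, *Tcf7l1*, *Myc* and *Pygo1*) and 9 fell (*Wnt5a*, *Trabd2b*, *Wif1*, *Fzd5*, *Nkd1*, *Bcl9l*, *Tle3*, *Ccnd1* and *Ccn5*). At WL2 against WL1, 5 were called, or 6.02%, beside 3.68% of all genes tested, and all 5 fell: *Sfrp5*, *Wif1*, *Nkd1*, *Ccnd1* and *Ccn5*. Whether the pathway shares differ from those of all genes was not tested. *Pygo1* was outside the rule for named genes and is given to complete its count. The median log2 fold change of the 83 genes was -0.10, -0.12 and -0.04 in the 3 comparisons. The count of 7 was 1 without Pre 1 or without WL1 3, 2 without WL1 1 or without WL1 2, and 4 without WL2 2 or without WL2 3. The share of all genes called, 7.29% with every library, fell in these fits too. It was 3.03% and 2.74%, 3.23% and 3.64%, and 5.24% and 5.63%, in the same order.

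Of the 26 calls, 7 held whichever of the 9 libraries was left out, and the other 19 were lost in 2 to 9 of those fits. The stable ones concern 5 genes, all called at WL2 against Pre. *Trabd2b*, a membrane protease that inactivates Wnt proteins, averaged 80.04 CPM in Pre, 24.3 in WL1 and 22.7 in WL2 libraries, with log2 fold changes of -1.72 (SE 0.27, adjusted p = 0.00554, edgeR) and -1.82 (SE 0.27, adjusted p = 0.00241) against Pre. *Nkd1*, a feedback inhibitor that binds Dishevelled, was at 73.3, 51.6 and 31.3 CPM, and differed by -1.23 (log2, SE 0.13, adjusted p = 0.00033, edgeR) at WL2 against Pre. *Ccn5*, a matrix-associated protein of the CCN family that responds to Wnt signals, was at 77.7, 117.9 and 22.5 CPM, and fell by 1.79 (SE 0.25, adjusted p = 0.00183, edgeR) at WL2 against Pre and by 2.39 (SE 0.26, adjusted p = 0.00332) at WL2 against WL1 on the log2 scale. The receptor *Fzd5* was at 32.3 CPM at Pre and 15.4 at WL2, and *Myc*, a growth-promoting transcription factor activated by β-catenin in several tissues, at 14.6 and 28.3 CPM. Of the 8 target genes tested at WL2 against Pre, 3 were called, beside 10% of all genes tested. Of these 3, *Ccn5* and *Ccnd1* fell and *Myc* rose. The call of *Ccnd1* was not among the stable ones, as it was lost without WL2 2 and without WL2 3.

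By length-scaled level, the antagonist *Sfrp5* exceeded every other gene of both sets, with a mean of 362 FPKM, followed by *Fzd4* at 79.1 and by *Ctnnb1*, the gene of β-catenin, at 66.5 FPKM. The most abundant ligand was *Wnt5a* at 3.86 FPKM, close to *Wnt11* at 3.35 FPKM. Second in their lists were *Apcdd1* at 20.8 FPKM among antagonists, *Csnk1g2* at 30.7 among cytoplasmic components and *Wnt9a* at 2.77 among ligands. In the other lists, the 2 genes with the highest mean FPKM were *Ryk* at 18.1 and *Fzd1* at 15.9 among receptors, *Rspo1* at 13.9 and *Lgr4* at 9.13 in the R-spondin branch, *Wls* at 12.1 and *Trabd2b* at 6.00 in secretion, *Bcl9l* at 14.7 and *Tle3* at 14.5 among nuclear cofactors, and *Ccn5* at 35.2 and *Cd44* at 21.6 among targets.

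**Figure D4:**
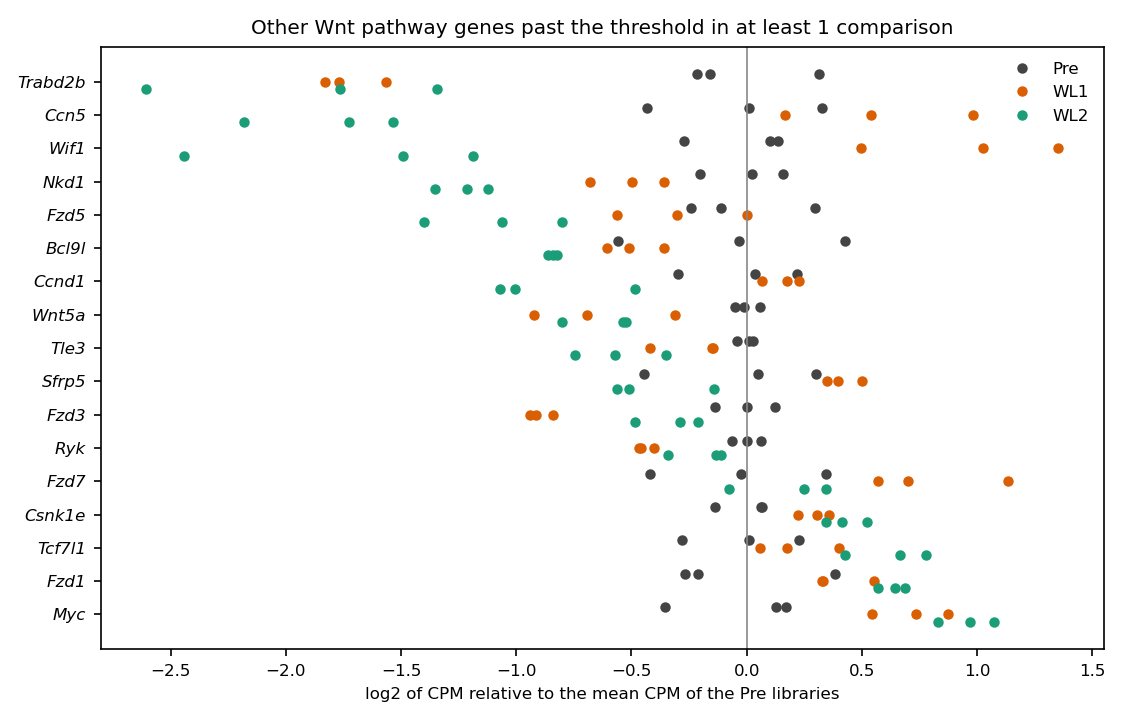
Log2 of CPM relative to the mean of the Pre libraries (horizontal axis) for 17 further Wnt pathway genes past the threshold in at least 1 comparison, with 1 point per library, coloured by group. *Trabd2b* is low at both WL1 and WL2, while *Ccn5* and *Wif1* are low at WL2 alone. *Wif1* was scarce, with 6, 3 and 7 reads in the WL2 libraries. Its call at WL2 against Pre was lost in each of the 9 fits that left out 1 library.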

How the data were processed

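Novogene sequenced RNA of epididymal adipose tissue in 9 libraries, which the sample labels put in 3 groups of 3. The authors deposited unnormalized whole-number counts for each gene, and FPKM values that scale them by gene length and library total. CASAVA, HISAT, HISAT2, TopHat2 and the builds GRCm38 and mm10 are named in the submitters' processing notes. Strand setting and annotation: not given in the sources used here. Because 0 of the 10 genes had the coordinates of GENCODE M21 on GRCm38, printed coordinates are those of the deposited table and carry no build. Deposited columns left without a sample: 0.

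The tested genes were the 18510 that reached 0.5 CPM in 1 library or more, the CPM limit of the study's methods, which name iDEP without further test settings. One quasi-likelihood model of edgeR 4.0.16 (R 4.3.3), with TMM scaling and no covariates, was fitted to the 9 libraries with glmQLFit and glmQLFTest. Adjustment was by Benjamini-Hochberg over all these genes, with a threshold of 0.05. The SE is the log2 fold change divided by the square root of F. A prior count of 4 was used for log2 CPM. Intervals of *Wnt4* are exact binomial ones and cover counting error only, as does the limit of 3 counts for a library at 0. The labels do not say that libraries came from separate mice, so p-values measure the spread between these libraries, which may be technical. Libraries of the same group differed beyond sampling noise (9.26 to 49.7 times the chi-square that such noise gives). Dividing the library total implied by the FPKM by the summed counts gave 0.995 to 1.01 for Pre, 1.07 to 1.11 for WL1 and 1.11 to 1.12 for WL2.

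The Wnt genes, the further pathway genes and the marker lists were chosen with earlier results of these data known. Named are the 10 genes, the further pathway genes past the threshold (at most the 12 with the smallest p per comparison), the 2 of each pathway list with the highest mean FPKM and the 3 genes most like *Wnt4*. The alternatives were other filters, RLE scaling, DESeq2 1.42.0, limma 3.58.1 with a pseudocount of 1 or 0.1 on log2 FPKM, fits of the compared groups alone, a replicate block and leaving out each library in turn. The models were tested on simulated counts with known fold changes.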

Additional observations from a re-analysis of the deposited data

How the results depend on the processing

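Of the 9 Wnt genes tested, without *Wnt4*, 2 were called at WL2 against Pre with no filter (7.17% of all genes) and with DESeq2 (14.7%), against 0 in the reported test. The replicate block gave 1 (7.56%), and leaving out single libraries gave 0 to 1 (4.03% to 9.08%). At WL2 against WL1, 1 was called with no filter (5.64% of all genes), with DESeq2 (10.5%) and in the fit of the compared groups alone (5.68%). Leaving out single libraries gave 0 to 1 (0.200% to 7.28%). The cause was not tested. The further pathway genes called at WL1 against Pre, 7 as reported, numbered 4 with limma on log2(FPKM + 0.1) (6.47% of all genes). They numbered 3 in the fit of the compared groups alone (5.29%), 2 with the replicate block (4.56%) and 1 to 8 without single libraries (2.74% to 8.05%). At WL2 against Pre, 14 as reported, they numbered 8 in the fit of the compared groups alone (7.03% of all genes). Without single libraries they numbered 5 to 13 (4.03% to 9.08%). At WL2 against WL1, 5 as reported, they numbered 11 with no filter (5.64% of all genes) and 9 with DESeq2 (10.5%). Without single libraries they numbered 1 to 7 (0.200% to 7.28%). Replicate numbers shared by the groups did not pair the libraries, as the correlations of same-numbered libraries ran from -0.28 to 0.11. With the replicate block the log2 fold change of *Tcf7l2* at WL2 against Pre was 0.80 (adjusted p = 0.0482, edgeR).

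Signs changed for *Fzd4* at WL2 against WL1, reported as -0.00, which was 0.026 with the filter on 3 libraries, 0.020 with RLE scaling and with DESeq2, 0.028 and 0.029 with limma on log2(FPKM + 1) and log2(FPKM + 0.1), 0.0096 in the fit of the compared groups alone, 0.013 with the replicate block and -0.12 to 0.11 without single libraries. Without single libraries the log2 fold changes at WL2 against Pre ran from -0.12 to 0.30 for *Wnt10b*, -0.056 to 0.68 for *Sfrp2*, -0.012 to 0.37 for *Sfrp4* and -0.59 to 0.16 for *Dkk2*. At WL2 against WL1 they ran from -0.033 to 0.44 for *Sfrp1*, -0.012 to 1.06 for *Sfrp2*, -0.21 to 0.21 for *Axin2* and -0.039 to 0.24 for *Tcf7l2*. *Wnt4* on log2(FPKM + 1) differed by -0.50 at WL1 against Pre, since a pseudocount above its level shrinks the value. The sign of all 442 refitted values of called pathway genes was that reported. Depth limits *Wnt4* and *Dkk2*, whose libraries hold few reads.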
